A study of Mus musculus with 21 samples.

Results

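Pou3f3, Pantr1 and 3110099E03Rik are 3 genes whose RNA was far more abundant in the second pharyngeal arch (PA2) than in the third (PA3) of wild-type (WT) mouse embryos at E10.5 (E for embryonic day). They were chosen by their levels in the WT PA2 and PA3 libraries, out of 24594 genes counted, so the WT arch comparison is given as a description without a test. All 3 passed the low-count filter of both count tables, which left 14383 genes in the table of genotypes and 13438 in the table of stages. Pou3f3 and Pantr1 are neighbours on chromosome 1. 3110099E03Rik lies on chromosome 2, so the 3 genes form a group by expression and not a single locus.

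The genotype series held PA2 and PA3 dissected at E10.5 from WT embryos and from HIRE1del/del embryos (HIRE1del), which lack the distal regulatory region HIRE1 of the Hoxa cluster on both chromosomes after deletion with CRISPR-Cas9 (their libraries carry the name delta-E3). The stage series held cells of Wnt1::Cre;ROSA RFP embryos, in which Cre under the Wnt1 promoter permanently labels the neural crest lineage, sorted by red fluorescence. They came from E10.5 PA2 and, at E12.5 and E14.5, from the forming external ear (pinna). Mice were of a mixed C57Bl/6J and CD1 background, embryos of both sexes were pooled, and each of the 7 groups had 3 biological replicate libraries. All libraries are labelled cranial neural crest cells, but no sorting is described for the genotype series, and marker genes of blood, epithelium and nerve cells were detected there.

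Pou3f3 (also called Brn1) encodes a POU-domain transcription factor, a DNA-binding protein with a POU-specific domain and a homeodomain, known from the developing brain and kidney. In the pharyngeal arches it marks the dorsal, upper part of the crest-derived mesenchyme, where the Dlx5 and Dlx6 factors of the ventral part hold its expression down. Pantr1 is a long noncoding RNA transcribed away from Pou3f3, from a start close to it on the opposite strand. 3110099E03Rik is annotated as a long noncoding RNA of no established function, on the side of the Meis2 gene where that gene ends. Meis2 encodes a homeodomain partner of Hox proteins.

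On the GRCm38 assembly, Pou3f3 is a single exon of 7409 bases at chr1:42695768-42703176 on the plus strand. Pantr1 spans chr1:42590782-42694842 on the minus strand, with 12 annotated transcripts (GENCODE M21), and its outermost start lies 926 bases from that of Pou3f3. 3110099E03Rik spans chr2:115493513-115527744 on the minus strand with 3 annotated transcripts, and its outermost start is 335 kb from the nearer end of Meis2. The exons of the 3 genes cover 7409, 4458 and 2935 bases, and 0 of these bases are shared with an exon of any other annotated gene on either strand. That matters here because the libraries were not strand-specific.

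An annotated sequence of each noncoding RNA is shown as an example of its spliced form. The counts cover all annotated exons of a gene, and which forms were present was not measured. Each is 1 annotated spliced form (GENCODE M21 transcripts Pantr1-206 and 3110099E03Rik-201), written 5′ to 3′, of which the first 300 bases are printed, and capitals mark the 4 bases on each side of every exon junction.
Pantr1-206: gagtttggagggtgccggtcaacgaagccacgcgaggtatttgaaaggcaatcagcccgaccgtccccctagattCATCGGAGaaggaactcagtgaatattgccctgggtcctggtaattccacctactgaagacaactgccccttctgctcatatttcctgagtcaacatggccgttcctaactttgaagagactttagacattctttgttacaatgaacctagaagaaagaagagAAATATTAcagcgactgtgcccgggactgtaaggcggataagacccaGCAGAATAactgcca
3110099E03Rik-201: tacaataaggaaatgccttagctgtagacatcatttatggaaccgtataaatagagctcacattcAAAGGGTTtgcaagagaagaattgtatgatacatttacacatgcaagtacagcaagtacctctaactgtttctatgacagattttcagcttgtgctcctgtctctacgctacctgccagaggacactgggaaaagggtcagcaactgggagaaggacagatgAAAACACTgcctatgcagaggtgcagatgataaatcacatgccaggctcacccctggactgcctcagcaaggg
The Pantr1 form joins 4 exons into 546 bases with 48.2% G and C. The 3110099E03Rik form joins 3 exons into 508 bases with 43.9% G and C. The longest open frame from an ATG to a stop codon held 65 codons in the Pantr1 form and 49 codons in the 3110099E03Rik form.

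Because the genes were high in the same arch, the RefSeq promoter windows of Pou3f3 and 3110099E03Rik were set beside each other (GRCm38.p6, 250 bases before the start to 50 bases after it). The table of windows matched 2 of the 3 genes, and the unmatched gene was Pantr1. The 250 bases before the start are printed, at chr1:42695518-42695767 on the plus strand and chr2:115512202-115512451 on the minus strand, with capitals for the letters searched, which matched the opposite strand and so read as ATTA and CTGTCA. The RefSeq start of 3110099E03Rik lies inside the longer gene that GENCODE annotates.
Pou3f3: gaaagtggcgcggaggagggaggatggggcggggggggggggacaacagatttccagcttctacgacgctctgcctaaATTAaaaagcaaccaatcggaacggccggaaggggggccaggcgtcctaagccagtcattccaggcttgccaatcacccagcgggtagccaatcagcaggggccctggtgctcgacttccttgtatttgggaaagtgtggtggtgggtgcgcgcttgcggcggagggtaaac
3110099E03Rik: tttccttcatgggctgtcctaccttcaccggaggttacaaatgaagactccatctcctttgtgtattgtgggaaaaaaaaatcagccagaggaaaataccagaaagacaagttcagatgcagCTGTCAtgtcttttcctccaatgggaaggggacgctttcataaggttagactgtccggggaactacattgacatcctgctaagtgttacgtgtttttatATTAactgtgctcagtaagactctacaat
A set of short letter strings was searched on both strands of the full windows, namely TGACAG (bound by Meis proteins), TAAT (the core that homeodomains bind) and ATGCAAA (the start of the POU octamer). Each window held TGACAG 1 time and TAAT 1 time, with no overlap between them, and neither held ATGCAAA. In Pou3f3 the TGACAG match lay 43 bases after the start and so outside the printed part. Of 32851 promoter windows of the same length, 19.2% held TGACAG, 58% held TAAT and 4.63% held ATGCAAA. The window of Pou3f3 had 60.3% G and C with 18 CG pairs, and that of 3110099E03Rik had 41.3% with 5, against medians of 52.7% and 7 over all windows.

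The libraries held 25804446 to 49058941 counts. Levels are given as CPM (counts scaled to library size with TMM), and levels of different genes are compared per kilobase of exon (RPKM). The ratio of Pou3f3 to Pantr1 is given in counts and is compared between libraries. A count of 3 in 1 library corresponds to 0.0631 to 0.117 CPM. In PA2, Hoxa2, a Hox gene that HIRE1 acts on, was at 73.4 to 84.2 CPM in WT and at 4.75 to 7.10 CPM in HIRE1del, and in PA3 at 56.0 to 65.1 and 22.1 to 25.6 CPM, so that the genotype labels and the levels of Hoxa2 matched in all 12 libraries.

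In WT arches, Pou3f3, the transcription factor, was at 160, 109 and 124 CPM in the 3 PA2 libraries and at 3.94, 3.25 and 18.8 CPM in the 3 PA3 libraries. The third PA3 library stood above the other PA3 libraries but below each PA2 library. Pantr1, the divergent noncoding RNA, was at 21.8, 17.0 and 23.0 CPM in PA2 and at 0.612, 0.929 and 1.58 CPM in PA3. 3110099E03Rik was at 81.6, 105 and 121 CPM in PA2 and at 0.229, 0.214 and 8.17 CPM in PA3. The first and second PA3 libraries held 6 counts of it each, and the third held 254.

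**Figure D1:**
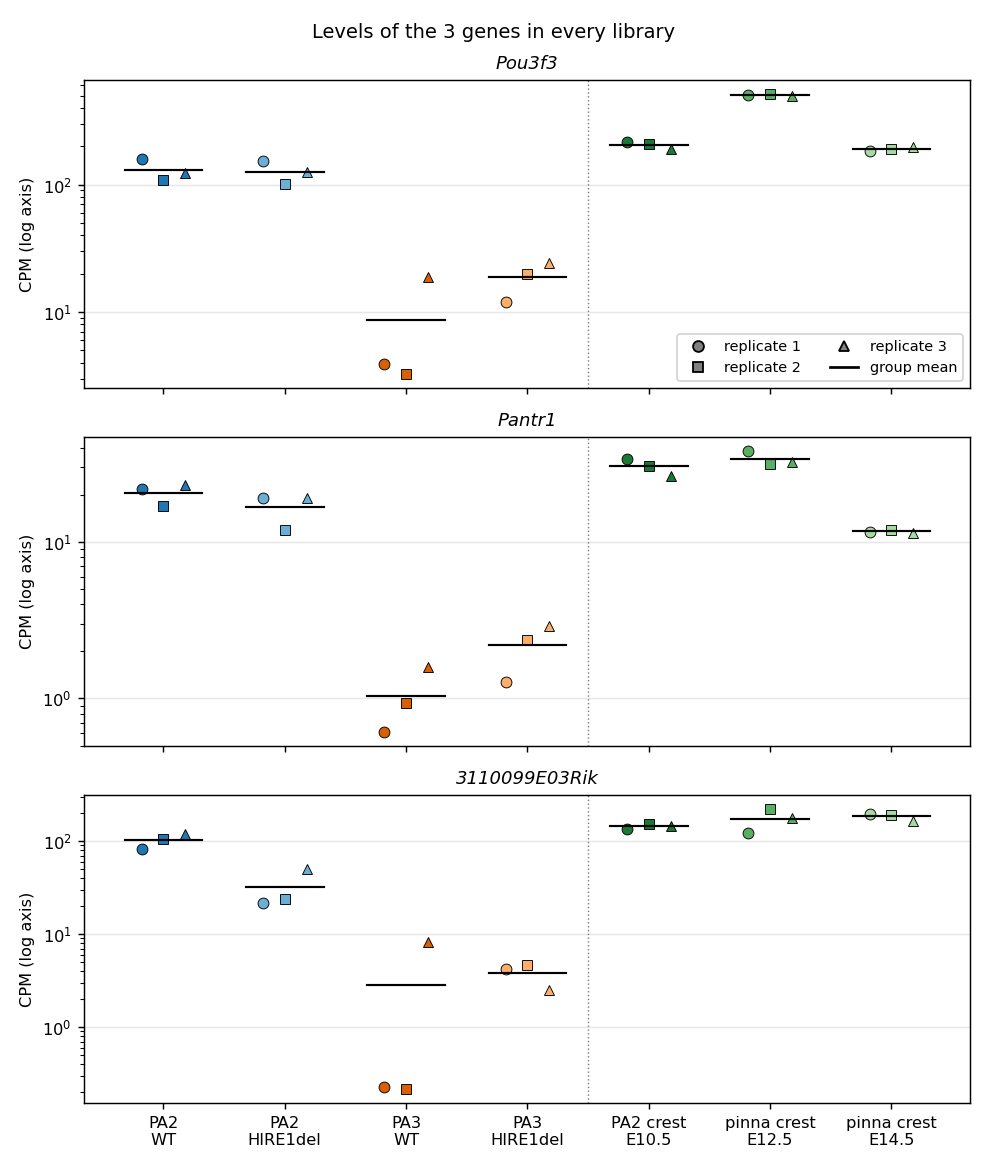
CPM of Pou3f3, Pantr1 and 3110099E03Rik (log axes) in each of the 21 libraries, by group, with a symbol for each replicate number and a line at the group mean; the dotted line separates the 2 count tables, which were scaled separately. In each panel all PA3 libraries sit below all PA2 libraries, and the third WT PA3 library is the highest of its group.

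The mean of the WT PA2 libraries was 15.1 times that of PA3 for Pou3f3, 19.8 times for Pantr1 and 35.7 times for 3110099E03Rik. Fitted log2 fold changes of PA3 against PA2 were −3.89 for Pou3f3, −4.28 for Pantr1 and −5.08 for 3110099E03Rik. Without the third WT PA3 library the ratios of means were 36.5, 26.7 and 462, and the fitted values were −5.18, −4.72 and −8.82. The 3 genes lay lower in PA3 with no overlap of libraries, as did 24.4% of all genes tested, which is how they were chosen.

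Within its group, the third WT PA3 library held 5.23 times as much Pou3f3 as the mean of the other 2, 2.05 times as much Pantr1 and 36.8 times as much 3110099E03Rik. It thus reached 14.3%, 7.65% and 7.98% of the mean WT PA2 level. Other genes of PA2 were also raised in it. A set of 28 other genes was called lower in HIRE1del PA3 than in HIRE1del PA2, with a log2 decrease of at least 2 and an average log2 CPM of at least 0. Of these, 23 were highest in this library among the WT PA3 libraries (82.1%, against 32.5% of all genes), with a median log2 difference of 0.72 from the other 2. In HIRE1del PA3 the third library was likewise the highest for 20 of the 28 (71.4%), with a median difference of 0.36, although the set was defined on those libraries. The 291 genes called higher in HIRE1del PA3 by the same margin and filter had a median of −0.23 in the third WT PA3 library. In the first and second it was −0.12 and 0.30. In the 3 HIRE1del PA3 libraries the medians were 0.34, −0.27 and 0.07, so the lowest there was the second library and not the third. These sets were defined after the values were seen and carry no test. Whether the library holds cells of PA2 was not tested.

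Per kilobase of exon, the order of the 3 genes in PA2 differed from their order in CPM. In WT PA2, 3110099E03Rik had the highest level with 27.8, 35.7 and 41.2 RPKM, and after it came Pou3f3 with 21.6, 14.8 and 16.8 RPKM and Pantr1 with 4.89, 3.82 and 5.15 RPKM. These 3 ranges did not overlap. In WT PA3 the means were 0.978 ± 1.56, 1.17 ± 1.18 and 0.233 ± 0.110 RPKM (SD, n = 3), in the same order of genes. The range of 3110099E03Rik there overlapped those of both other genes.

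The arch difference was measured again in HIRE1del embryos, whose libraries were not used to choose the genes. Pou3f3 was at 153, 101 and 125 CPM in PA2 and at 11.9, 20.04 and 24.4 CPM in PA3. Pantr1 was at 19.2, 11.9 and 19.0 CPM in PA2 and at 1.27, 2.38 and 2.92 CPM in PA3. 3110099E03Rik was at 21.7, 23.9 and 50.4 CPM in PA2 and at 4.26, 4.72 and 2.50 CPM in PA3. For all 3 genes, each PA3 library lay below each PA2 library, as was the case for 21.3% of all genes tested.

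All 3 genes were lower in PA3 than in PA2 of HIRE1del embryos. The log2 fold change was −2.75 ± 0.44 (SE) for Pou3f3 (edgeR's quasi-likelihood test, Benjamini-Hochberg adjusted p = 0.000415). It was −2.92 ± 0.29 for Pantr1 (edgeR, adjusted p = 8.71e-06) and −3.07 ± 0.68 for 3110099E03Rik (edgeR, adjusted p = 0.00393). The PA3 means were 14.8%, 13.1% and 11.95% of the PA2 means. Of all genes tested, 33.4% were called in this comparison and 14.7% were called lower, so a call alone was common, while by size of decrease the 3 genes took ranks 11, 12 and 13 among 14383 genes (3110099E03Rik, Pantr1 and Pou3f3).

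**Figure D2:**
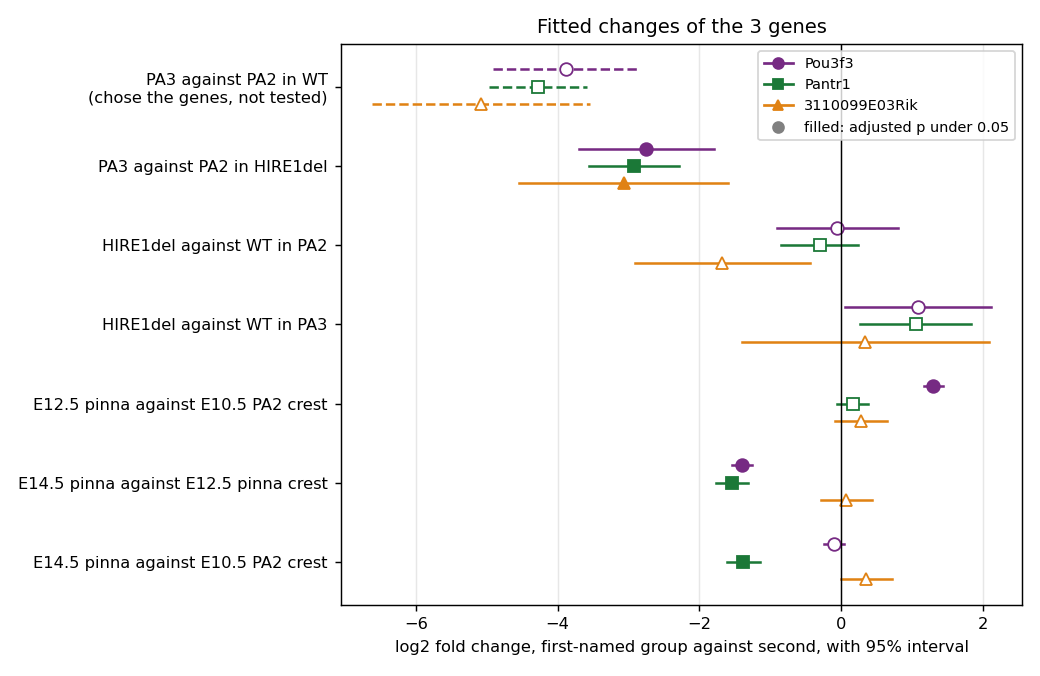
Fitted log2 fold changes of the 3 genes (x axis) in the WT arch comparison, which chose them, and in the 6 tested comparisons, with 95% intervals; filled symbols have an adjusted p under 0.05. The 3 genes lie between −3.07 and −2.75 in the HIRE1del arches, and Pou3f3 and Pantr1 differ at E12.5 in the stage series.

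The makeup of the libraries differed between the arches as well. The summed level of 19 markers of nerve cells and their progenitors was 79.8 to 107 CPM in the 6 PA2 libraries and 233 to 472 CPM in the 6 PA3 libraries, with 15 of the 19 passing the filter and only Sox1 at 0 in all PA2 libraries. The 12 epithelial markers summed to 251 to 317 CPM in PA2 and 501 to 788 CPM in PA3, and the 5 erythroid markers to 1346 to 2938 and 10761 to 21536 CPM. The 9 markers of arch crest mesenchyme summed to 1192 to 1427 CPM in PA2 and 824 to 1084 CPM in PA3. In each group of the genotype series the third library had the highest sum of these markers, at 1029 CPM in WT PA3 and 1084 CPM in HIRE1del PA3. In HIRE1del, 5 of these 9 were called lower in PA3 (Prrx1, Twist1, Pdgfra, Dlx1 and Dlx2) and 3 higher (Prrx2, Msx1 and Meox1). In bulk libraries, fewer cells of a type and less RNA per cell cannot be told apart, and the part of these markers in the result was not tested.

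The fitted arch difference was smaller in HIRE1del than in WT, by 1.14 ± 0.62 (SE, log2) for Pou3f3, 1.36 ± 0.44 for Pantr1 and 2.02 ± 0.99 for 3110099E03Rik. Without the third WT PA3 library these values were 2.43, 1.79 and 5.75. They are a description, since the WT libraries chose the genes.

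The effect of the deletion within each arch was then examined. These comparisons share the WT libraries by which the genes were chosen as high in PA2 and low in PA3, a choice that favours lower HIRE1del values in PA2 and higher ones in PA3. In PA2, Pou3f3 was close to its WT level in HIRE1del, with a log2 fold change of −0.05 and a 95% interval of −0.91 to 0.81 (edgeR, adjusted p = 0.988). Pantr1 had a log2 fold change of −0.30 with an interval of −0.84 to 0.23 (edgeR, adjusted p = 0.794). The libraries of both genes overlapped between genotypes, and the intervals leave room for changes of either sign.

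3110099E03Rik had the largest difference of the 3 genes in PA2, where its mean in HIRE1del was 31.3% of that in WT. Its 3 HIRE1del libraries (21.7 to 50.4 CPM) lay below its 3 WT libraries (81.6 to 121 CPM), as was the case for 7.52% of all genes tested. The log2 fold change was −1.68 ± 0.57 with an interval of −2.91 to −0.44. It did not pass the adjustment over all genes (edgeR, unadjusted p = 0.0117, adjusted p = 0.408), which 0.438% of genes passed in this comparison. An unadjusted p under 0.05 was reached by 8.57% of genes. With limma-voom the adjusted p was 0.0204, and with edgeR on the 6 PA2 libraries alone it was 0.0342. With DESeq2 it was 0.789 (unadjusted p = 0.131), and with edgeR and a block for replicate number it was 0.168. The gene stayed uncalled in 11 of 13 alternatives, so the side of the threshold depends on the test used. Because the gene was chosen for a high level in the same WT PA2 libraries, none of these p-values is independent support for a decrease.

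In PA3, Pou3f3 and Pantr1 had higher means in HIRE1del than in WT, by log2 fold changes of 1.09 (interval 0.05 to 2.12, edgeR, adjusted p = 0.494) and 1.05 (interval 0.27 to 1.84, edgeR, adjusted p = 0.384). The libraries of the 2 genotypes overlapped for both, because the third WT library reached the HIRE1del range. For 3110099E03Rik the log2 fold change was 0.34 with an interval of −1.40 to 2.08 (edgeR, adjusted p = 0.933), and the third WT library was the highest of all 6. In this comparison 0.216% of all genes were called, and 9.73% had an unadjusted p under 0.05, Pou3f3 and Pantr1 among them. Without the third WT PA3 library the log2 fold change of Pou3f3 was 2.39 (edgeR, adjusted p = 0.0136), that of Pantr1 was 1.498 (edgeR, adjusted p = 0.247) and that of 3110099E03Rik was 4.08 (edgeR, adjusted p = 0.0661). The side of the threshold on which Pou3f3 falls thus rests on this library, and no call is read from the smaller set, since the genes were chosen for low WT PA3 levels and leaving out the highest WT library favours a rise.

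In the sorted crest, which extends the PA2 lineage to the pinna, the 3 genes followed different courses. Pou3f3 was at 216, 209 and 189 CPM in PA2 at E10.5, at 505, 516 and 491 CPM in the pinna at E12.5 and at 184, 190 and 199 CPM at E14.5. It rose from E10.5 to E12.5 with a log2 change of 1.30 ± 0.06 (edgeR, adjusted p = 2.04e-08). It fell by 1.401 ± 0.06 on the log2 scale from E12.5 to E14.5 (edgeR, adjusted p = 1.42e-08). E14.5 against E10.5 gave −0.10 with an interval of −0.24 to 0.04 (edgeR, adjusted p = 0.162). The E12.5 libraries were thus 2.47 times as high in mean as those at E10.5, with the other 2 stages overlapping.

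Pantr1 did not share the rise of its neighbour. It was at 34.0, 30.5 and 26.4 CPM at E10.5, 37.9, 31.6 and 32.5 CPM at E12.5 and 11.6, 11.98 and 11.4 CPM at E14.5. The first 2 stages overlapped, with a log2 fold change of 0.17 and an interval of −0.06 to 0.39 (edgeR, adjusted p = 0.162). From E12.5 to E14.5 it fell by 1.54 ± 0.10 on the log2 scale, to 34.3% of the E12.5 mean (edgeR, adjusted p = 2.77e-07), close to the fall of Pou3f3 over the same interval. Against E10.5 the E14.5 level was lower with a log2 change of −1.38 ± 0.10 (edgeR, adjusted p = 1.79e-07).

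3110099E03Rik was at 136, 153 and 145 CPM at E10.5, 123, 223 and 180 CPM at E12.5 and 198, 191 and 165 CPM at E14.5. No stage comparison passed the threshold, with log2 fold changes of 0.28, 0.07 and 0.35 for E12.5 against E10.5, E14.5 against E12.5 and E14.5 against E10.5 (edgeR, adjusted p = 0.152, 0.707 and 0.0654). The largest of these had an interval of −0.01 to 0.72. Its E14.5 libraries lay above its E10.5 libraries, as did those of 42.9% of genes. Without the first E12.5 library, the lowest of the 9, E12.5 against E10.5 gave 0.48 and passed (edgeR, adjusted p = 0.00226).

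Calls were frequent in this series, at 68.8%, 65.7% and 82% of all genes for E12.5 against E10.5, E14.5 against E12.5 and E14.5 against E10.5, against 1, 2 and 1 of the 3 genes, and nothing is read from these counts of members. Calls in the direction of Pou3f3 or Pantr1 made up 35% of genes at the first step (higher), 33.1% at the second (lower) and 40% for E14.5 against E10.5 (lower). Stage goes together with the site of dissection, and the E14.5 tissue was dissociated with papain in place of trypsin and sequenced more deeply, so these cannot be told apart. The 19 markers of nerve cells and progenitors summed to 55.9 to 70.8 CPM at E10.5, 138 to 189 CPM at E12.5 and 15.5 to 23.2 CPM at E14.5, with the highest sum at E12.5. Only 8 of the 19 passed the filter, and they went both ways from E10.5 to E12.5, with 3 called higher (Stmn2, Nefl and Nefm), 4 called lower (Isl1, Tubb3, Elavl4 and Dcx) and a median log2 fold change of −0.73. At E12.5, Pax6, Neurog2 and Neurod4 were at 0 in all 3 libraries. The 9 crest mesenchyme markers summed to 1815 to 2106 CPM at E10.5, 3537 to 3786 at E12.5 and 3684 to 4054 at E14.5. From E10.5 to E12.5, 5 of these 9 were called higher and 3 lower. Over the 3 stages in turn, the 6 endothelial markers summed to 6.79 to 8.99, 19.0 to 26.2 and 108 to 173 CPM. Those of migrating crest and glia summed to 20.5 to 23.4, 21.6 to 25.6 and 84.3 to 99.8 CPM. The 12 epithelial markers summed to 31.2 to 35.4, 10.9 to 14.1 and 34.1 to 53.2 CPM. The part of these markers in the course of Pou3f3 was not tested.

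The ratio of the 2 neighbouring genes showed the split between them in each library. There were 6.35, 6.85 and 7.14 counts of Pou3f3 for each count of Pantr1 at E10.5, 13.3, 16.3 and 15.1 at E12.5 and 15.9, 15.8 and 17.4 at E14.5. The E10.5 libraries lay apart from all others. On the log2 scale, with 0.1 CPM added, the ratio of Pantr1 to Pou3f3 was lower at E12.5 than at E10.5 by a difference of −1.14 (exact two-sided permutation test, p = 0.1), the smallest p that 3 against 3 libraries allow. Between E12.5 and E14.5 the difference was −0.13 (exact permutation test, p = 0.3).

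**Figure D3:**
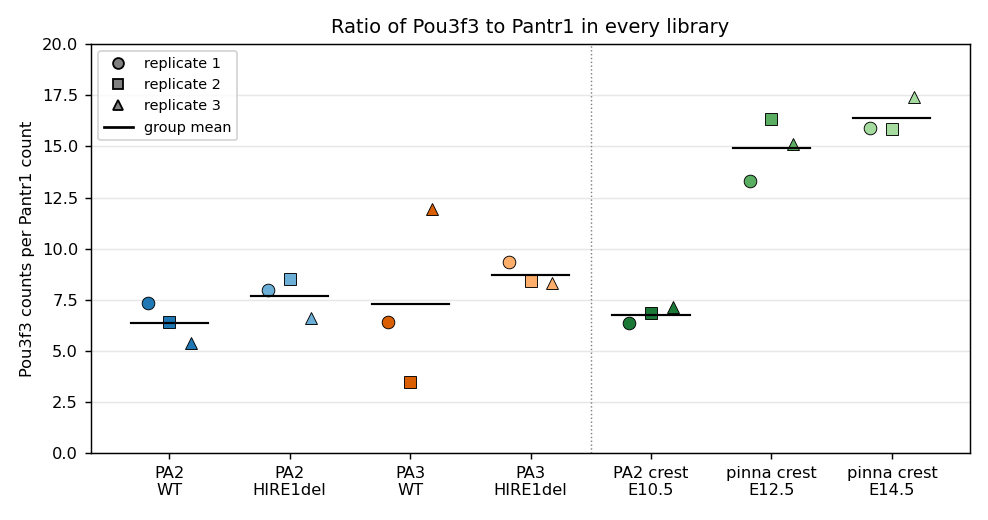
Counts of Pou3f3 for each count of Pantr1 in every library (y axis, from 0), by group, with symbols for the replicate number and a line at the mean. The 3 E10.5 crest libraries lie between 6.35 and 7.14 and the 6 pinna libraries between 13.3 and 17.4.

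In the arches the ratio varied less between groups. It was 7.33, 6.41 and 5.42 counts of Pou3f3 for each of Pantr1 in WT PA2, 7.97, 8.51 and 6.61 in HIRE1del PA2 and 9.35, 8.43 and 8.35 in HIRE1del PA3. PA3 against PA2 in HIRE1del gave a log2 difference of −0.13 in the ratio of Pantr1 to Pou3f3 (exact permutation test, p = 0.4), while both genes were lower in PA3 by a log2 fold change near −3. HIRE1del against WT gave −0.27 in PA2 (exact permutation test, p = 0.2) and −0.49 in PA3 (exact permutation test, p = 0.4). Without the third WT PA3 library the PA3 value was −0.95 and the libraries no longer overlapped (exact permutation test, p = 0.1, the smallest that 2 against 3 libraries allow). In WT PA3 the 3 libraries had ratios of 6.44, 3.50 and 11.9, with only 16 to 49 counts of Pantr1 behind them.

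Other genes of the POU family were set beside Pou3f3. Of 14 others counted, 7 could be tested in the arches and 6 in the stage series. In HIRE1del, 1 of 7 was called higher in PA3 than in PA2 and 3 were called lower, with a median log2 fold change of −0.23 against −0.000153 over all genes. Of all genes, 33.4% were called in this comparison and 14.7% were called lower. Pou3f4 (Brn4), a close relative known from the otic mesenchyme, was at 11.2, 6.002 and 14.4 CPM in HIRE1del PA2 and 2.99, 3.88 and 4.38 CPM in HIRE1del PA3. It was lower in PA3 with a log2 change of −1.48 ± 0.32 (edgeR, adjusted p = 0.00327), less in size than Pou3f3. The relative Pou3f2 (Brn2), a factor of neural progenitors, went the other way with 0.96 ± 0.30 (edgeR, adjusted p = 0.0233), at 0.665 to 2.94 CPM in the 6 libraries. Pou2f1 and Pou6f1 were the other 2 called lower, by −0.23 and −0.49. In the WT arches, given without a test, Pou3f4 had means of 2.97 CPM in PA3 and 25.2 CPM in PA2. Its fitted value there was −3.07, beside −3.89 for Pou3f3.

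HIRE1del against WT called 0 of the 7 other POU genes in either arch (edgeR), with 1 of 7 at an unadjusted p under 0.05 in PA2 and 0 in PA3, and DESeq2 also called 0 in both. That gene was Pou3f4 in PA2, at 25.3, 23.3 and 26.9 CPM in WT and 11.2, 6.002 and 14.4 CPM in HIRE1del. Its log2 fold change was −1.26 ± 0.29 (edgeR, adjusted p = 0.113). Over all genes, edgeR called 0.438% in PA2 and 0.216% in PA3, and 8.57% and 9.73% had an unadjusted p under 0.05. Nothing is read from the count of 0 of 7.

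**Figure D4:**
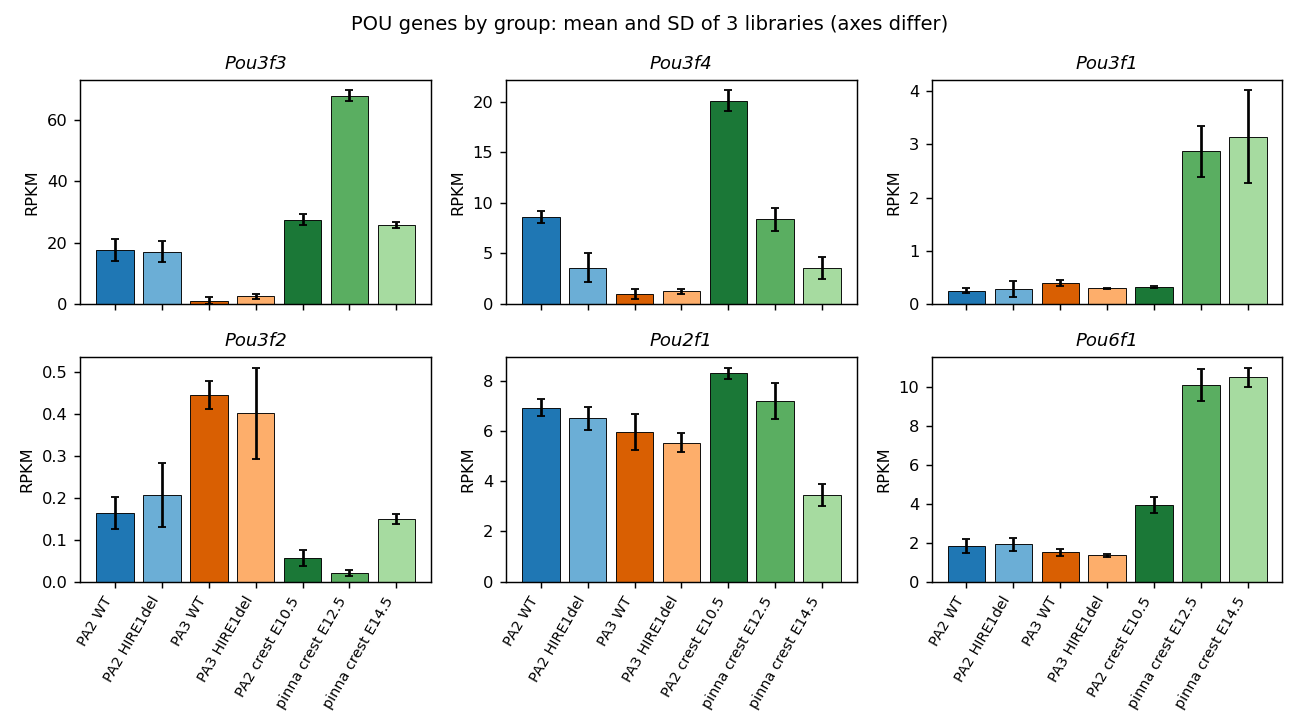
Mean RPKM (bars, from 0) and SD of 3 libraries for Pou3f3 and 5 other POU genes in the 7 groups, with a separate axis for each gene. Pou3f3 peaks in the E12.5 pinna at 68.0 RPKM, Pou3f4 is highest in E10.5 PA2 crest at 20.1 RPKM, and Pou3f1 and Pou6f1 are higher in the pinna than in PA2.

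In the sorted crest the relatives of Pou3f3 had other courses. Pou3f4 fell at each step, from 58.8 ± 3.00 CPM at E10.5 to 24.5 ± 3.25 at E12.5 and 10.4 ± 3.25 at E14.5 (SD, n = 3), with log2 fold changes of −1.26 and −1.23 (edgeR, adjusted p = 7.20e-05 and 0.000142). Pou3f1 (Oct6), a factor of Schwann cells and epidermis, rose from 1.26 ± 0.08 CPM at E10.5 to 11.0 ± 1.81 at E12.5 and was at 12.1 ± 3.34 at E14.5. On the log2 scale the first step was 3.12 (edgeR, adjusted p = 5.08e-07) and the second was 0.13 (edgeR, adjusted p = 0.553). Pou6f1 rose by 1.35 from E10.5 to E12.5 (edgeR, adjusted p = 1.62e-07), and Pou2f3, an epidermal and tuft cell factor, went from 0 to 1 count in each E10.5 library to 13 to 21 at E12.5 and 128 to 170 at E14.5. Of the genes of the family tested here, Pou3f3 had the highest RPKM in the E12.5 pinna, at 68.0 ± 1.66 against 10.1 ± 0.82 for Pou6f1, the next.

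The genes annotated within 1 Mb were compared with the members. Around Pou3f3, 8 other genes were counted and 6 passed the filter in the genotype table. In the HIRE1del arches Fhl2 was called higher in PA3 (0.85, edgeR, adjusted p = 0.00217) and Mrps9 lower (−0.20, edgeR, adjusted p = 0.0297), while all 6 lay between −0.22 and 0.85. No tested neighbour had a decrease of the size seen in Pou3f3 and Pantr1. Pantr2, which did not pass the filter and was not tested, had 16, 24 and 12 counts in HIRE1del PA2 and 1, 2 and 1 in HIRE1del PA3. HIRE1del against WT called 0 of 6 in PA2 and 0 of 6 in PA3 (edgeR, with log2 fold changes of −0.26 to 0.21 over both arches), and neither an unadjusted p under 0.05 nor DESeq2 added one (0 and 0). Over all genes, edgeR called 0.438% in PA2 and 0.216% in PA3, and 8.57% and 9.73% had an unadjusted p under 0.05.

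In the sorted crest, 7 of the 8 neighbours were tested. From E10.5 to E12.5, Pantr2, Gpr45, Tgfbrap1 and Nck2 rose and Mrps9 fell. From E12.5 to E14.5, Nck2 rose, while Pantr2, Gpr45 and Fhl2 fell. The 5 and 4 of 7 called are near the shares over all genes, 68.8% and 65.7%. Pantr2, a second noncoding RNA 3.88 kb beyond the end of Pou3f3, had the same directions as Pou3f3 at both steps, with log2 fold changes of 1.05 (edgeR, adjusted p = 0.0257) and −2.02 (edgeR, adjusted p = 0.000689). It had few counts, 19 to 30 at E10.5, 31 to 57 at E12.5 and 10 to 25 at E14.5. E14.5 against E10.5 called Gpr45 and Nck2 higher and Pantr2, Mrps9 and Fhl2 lower.

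**Figure D5:**
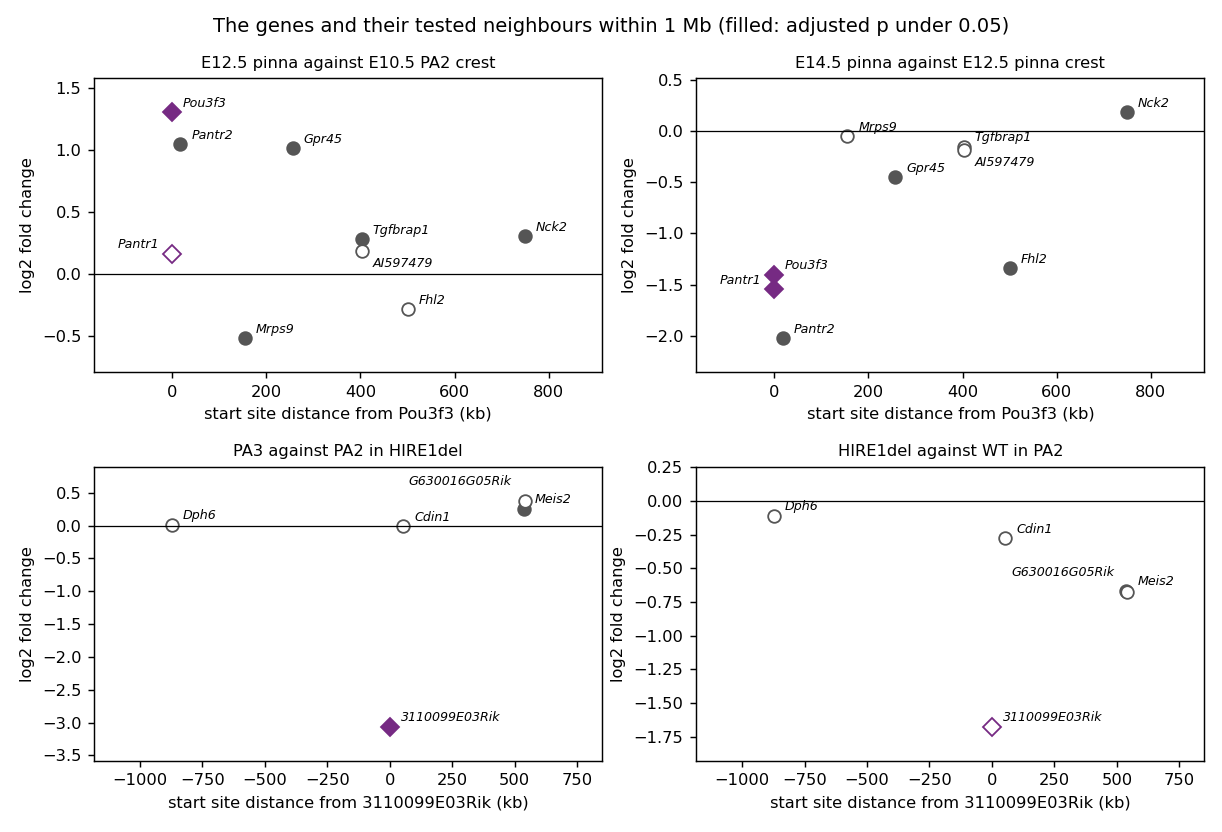
Log2 fold change (y axis) against the distance of the start site in kb (x axis) for the members (diamonds) and the tested genes within 1 Mb (circles), around Pou3f3 at both pinna steps and around 3110099E03Rik in the HIRE1del arches and for HIRE1del against WT in PA2; filled symbols have an adjusted p under 0.05. Pantr2 moves with Pou3f3 at both steps, and 3110099E03Rik lies far below its neighbours in the HIRE1del arches. For HIRE1del against WT in PA2 it has the lowest value, −1.68, but its interval (−2.91 to −0.44) covers those of Meis2 and G630016G05Rik. The WT PA2 libraries of that panel were also used to choose the gene.

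Around 3110099E03Rik, 6 genes were counted and 4 were tested. Meis2 was called in the HIRE1del arch comparison and for HIRE1del against WT in PA2. It was higher in PA3 than in PA2 of HIRE1del by 0.26 on the log2 scale (edgeR, adjusted p = 0.00107), where 3110099E03Rik was lower by −3.07. In the WT arches, given without a test, Meis2 was lower in PA3, as was 3110099E03Rik. Its fitted value there was −0.37, with means of 349 CPM in PA3 and 450 CPM in PA2. In PA2, Meis2 was lower in HIRE1del than in WT by −0.67 ± 0.05 (edgeR, adjusted p = 7.92e-06), at 274, 287 and 290 CPM against 461, 435 and 454 CPM. The remaining neighbours in PA2 were not called, with log2 fold changes of −0.68 for G630016G05Rik, which starts beside Meis2, −0.28 for Cdin1 and −0.11 for Dph6. Of the 4, however, 3 had an unadjusted p under 0.05 in PA2 (edgeR), namely Meis2, G630016G05Rik and Cdin1. DESeq2 called 1 (Meis2). Of all genes, 0.438% were called in PA2 and 8.57% had an unadjusted p under 0.05 (edgeR). In PA3, 0 of 4 were called for HIRE1del against WT (edgeR), with 0 at an unadjusted p under 0.05 and 0 by DESeq2. The shares over all genes there were 0.216% called and 9.73% at an unadjusted p under 0.05 (edgeR).

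At the pinna stages, Meis2 and G630016G05Rik rose from E10.5 to E12.5 by 0.52 and 1.01 (edgeR, adjusted p = 3.17e-05 and 0.000192), and Cdin1 fell at both steps. 3110099E03Rik and Meis2 both had higher means in the pinna than in PA2, but for 3110099E03Rik the difference was not called.

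Genes that pattern the arch gave the context of the arch comparison. The arch identity genes Hoxa2, Hoxa3, Hoxb2, Hoxb3 and Hoxd3 were all called higher in PA3 than in PA2 of HIRE1del (5 of 5). For Hoxa2 the WT arches went the other way, with means of 61.4 CPM in PA3 and 78.3 CPM in PA2 and a fitted value of −0.35. Its mean in HIRE1del PA2 was 5.87 CPM. The other arch identity genes were higher in PA3 in WT too. The WT values are given without a test. Of 22 genes of dorsoventral patterning, 7 were called higher in PA3 (Hand1, Edn1, Msx1, Msx2, Jag1, Eya1 and Hey1) and 13 lower. The lower ones were Dlx1, Dlx2, Dlx3, Dlx4, Dlx5, Dlx6, Ednra, Gsc, Barx1, Notch2, Nr2f1, Nr2f2 and Emx2. Their median log2 fold change over the list was −0.55 against −0.000153 over all genes. Of all genes, 33.4% were called in this comparison and 14.7% were called lower. HIRE1del against WT called 1 of the 22 in PA2 (Barx1, higher) and 0 in PA3 (edgeR), with 9 and 3 at an unadjusted p under 0.05 and 4 and 2 called by DESeq2, beside 3 of 5 and 2 of 5 arch identity genes, all lower. Over all genes, edgeR called 0.438% in PA2 and 0.216% in PA3, and 8.57% and 9.73% had an unadjusted p under 0.05. In the sorted crest, 18 of the 21 dorsoventral genes tested were called lower at E14.5 than at E10.5 and 3 higher. Of all genes, 82% were called there and 40% were called lower.

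By likeness of pattern over the 12 genotype libraries, each gene's log2 CPM was centred on its own mean and compared by the root-mean-square difference. The gene most like Pou3f3 was Pantr1 (0.43), followed by Emx2 (0.46), Dlx4os (0.52), Emx2os (0.54) and Dlx4 (0.57), out of 14382. The genes most like Pantr1 were Emx2 (0.38), Dlx4 (0.41), Pou3f3 (0.43), Fos (0.45) and Fosb (0.50). 3110099E03Rik had no near match, with Dlx4os (1.04), Pou3f3 (1.18), Emx2 (1.31), Dlx4 (1.33) and Pantr1 (1.341) the closest. The measure uses the libraries that chose the genes, and it follows the contrast between the arches. Emx2, a homeobox gene, was at 39.2 to 42.0 CPM in WT PA2 and 1.64 to 6.05 CPM in WT PA3.

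Over the 9 stage libraries Pantr1 was not among the 3 genes most like Pou3f3, which were Chst15 (0.12), Mapk8ip2 (0.13) and Nrp2 (0.14). Those most like Pantr1 were Galnt16 (0.11), St6gal1 (0.12) and B3gnt4 (0.12). With 0.5 CPM added in place of 0.1, Emx2 was nearest to Pou3f3 in the genotype libraries and Pou3f3 was 7th in order for Pantr1.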

How the data were processed

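The authors aligned unstranded poly(A)-selected libraries (TruSeq, 50-base reads, single-end in the stage series and paired-end in the genotype series) to GRCm38/mm10 with QuasR, and deposited raw counts, without normalization, of alignments to exons of UCSC known genes, taking the opposite strand. The submitters' processing notes name bcl2fastq 2.17 and 2.20. Reads from both strands of an unstranded library can enter such counts. 0 columns of values were left unused.

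Each table was analysed separately in R 4.3.3 with edgeR 4.0.16. A gene was tested where 2 or more libraries reached 1 CPM. TMM set the scale of each library, and a mean per group was fitted to all libraries of a table. Contrasts used the two-sided quasi-likelihood test with Benjamini-Hochberg adjustment over all genes tested, with a call at an adjusted p under 0.05. The script was tested on simulated counts. P-values measure the spread between libraries, with 3 per group. No replicates were copies of each other (chi-square divided by its degrees of freedom, 7.00 to 46.5). Intervals and count floors cover counting error or the fitted spread only.

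The 3 genes, the gene lists and the comparisons were chosen with earlier results of these data known. Named genes are the 3 genes, the tested POU genes, called genes within 1 Mb, arch identity and dorsoventral patterning lists, the 5 genes nearest in pattern over the genotype libraries and the 3 nearest over the stage libraries. Positions and transcripts came from GENCODE M21 and promoter windows from RefSeq, both on GRCm38. Alternatives were DESeq2 1.42.0, limma 3.58.1 (voom), other scalings, filters, pseudocounts and sets of libraries.

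Replicate numbers were checked for pairing by correlating deviations from group means. Within a genotype, PA2 and PA3 libraries that share a number gave r = 0.382, 0.230 and 0.248 (WT) or 0.213, 0.284 and 0.342 (HIRE1del). They were treated as paired only in the alternative with a replicate block. The main tests, whose p-values are given in the results, used no block. What a number stands for is not given in the sources used here. Across genotypes r was −0.202 to 0.276. It was positive for number 3 in every pair of groups (0.131 to 0.276) and negative for number 2. Between stages it was −0.312 to 0.202. With signs mixed, numbers were not taken to pair genotypes or stages. What the libraries of number 3 share was not tested.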

Additional observations from a re-analysis of the deposited data

Results flagged for a closer look

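In 2 genes every HIRE1del library lay on one side of the WT mean in PA2 and on the other side in PA3. For Pantr1 the log2 difference of the group means, with 0.1 CPM added, was −0.30 in PA2 and 1.01 in PA3. For Pou3f4 it was −1.25 in PA2 and 0.33 in PA3. For Pou3f4 the fitted difference between the arches was 1.58 (95% interval 0.60 to 2.56), which did not pass the adjustment over all genes (edgeR, adjusted p = 0.792). For Pantr1 the difference was not tested, since the WT libraries chose the gene.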

How the results depend on the processing

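All 3 genes stayed below PA2 and called in HIRE1del PA3 under every alternative run. With the replicate block, which takes PA2 and PA3 of a number as a pair, the values were −2.75 for Pou3f3, −2.91 for Pantr1 and −2.99 for 3110099E03Rik. For E14.5 against E10.5 the block moved 3110099E03Rik to 0.36 and past the threshold (edgeR, adjusted p = 0.0486), as did 1 CPM in every library (0.42), DESeq2 (0.34) and the 6 libraries alone (0.34), and it changed no other call of the 3 genes. Across genotypes and stages, libraries that share a number had correlations of mixed sign.

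In PA2, limma-voom (−1.77) and the 6 libraries alone (−1.67) called 3110099E03Rik lower in HIRE1del, while the remaining 11 of 13 alternatives did not. Library totals in place of TMM lowered the median of all genes by 0.12 (log2) for E14.5 against E12.5, gave −0.047 for 3110099E03Rik there, and called Pou3f3 lower at E14.5 than E10.5 (−0.16). A pseudocount of 0.5 turned the log2 ratio of Pantr1 to Pou3f3 in the HIRE1del arches to 0.063, and one of 0.01 that in WT to −0.013.

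Leaving out 1 library at a time gave the following ranges. For Pou3f3 they were −0.21 to 0.11 for HIRE1del in PA2, 0.70 to 2.39 in PA3, −5.18 to −3.50 for the WT arches, 0.75 to 2.43 for the difference of the arch contrasts and −0.15 to −0.060 for E14.5 against E10.5. For 3110099E03Rik they were −0.19 to 4.08 for HIRE1del in PA3, −8.82 to −4.55 for the WT arches, 1.48 to 5.75 for the difference, 0.070 to 0.48 for E12.5 against E10.5, −0.13 to 0.28 for E14.5 against E12.5 and 0.31 to 0.43 for E14.5 against E10.5. For Pantr1 at E12.5 against E10.5 it was 0.075 to 0.25, and for HIRE1del against WT −0.42 to −0.11 in PA2. For the ratio of Pantr1 to Pou3f3 the ranges were −0.34 to 0.55 for the WT arches and, for HIRE1del against WT, −0.38 to −0.16 in PA2 and −0.95 to −0.057 in PA3. Pantr1 passed at E12.5 without the first E10.5 library (edgeR, adjusted p = 0.0494), and Pou3f3 passed at E14.5 against E10.5 without the third (edgeR, adjusted p = 0.0378). 3110099E03Rik passed there without the third E14.5 library (edgeR, adjusted p = 0.0455). Pantr1 and 3110099E03Rik have no value with a filter of 1 CPM in every genotype library, where WT PA3 falls below it.

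Genes called for HIRE1del against WT were 63 in PA2 and 31 in PA3, 162 and 94 with DESeq2, 105 and 54 with the block, and 33 to 66 and 8 to 28 without 1 library. A pseudocount of 0.5 kept 3 of the 5 genes most like Pou3f3, 3 of the 5 most like Pantr1 and 5 of 5 for 3110099E03Rik. In WT PA3, 3110099E03Rik rests on 6 counts in each of 2 libraries. The cause of these changes was not tested.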

Other observations

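Pantr2, the noncoding RNA beyond Pou3f3, fell below the filter in the arches. It had 15, 14 and 28 counts in WT PA2 and 16, 24 and 12 in HIRE1del PA2, against 0, 0 and 8 in WT PA3 and 1, 2 and 1 in HIRE1del PA3. The 8 counts were in the third WT PA3 library. No test was run on these counts.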
